A study of Mus musculus with 12 samples.

Results

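Gene expression in TNF-exposed glomeruli that lacked TNF receptor 2 was compared with that in TNF-exposed glomeruli that lacked TNF receptor 1. The comparison used the 3 arrays of Tnfr2-/- and the 3 arrays of Tnfr1-/- glomeruli, 6 of the 12 arrays hybridized, and covered 18194 genes, each read from 1 probe set, the one whose mean was highest among those of the gene. All values are log2 expression levels from Affymetrix mouse genome arrays, made by robust multi-array averaging (RMA), which puts the arrays on one distribution but leaves levels of different genes on scales that cannot be compared. Tnfr1-/- mice carried the allele Tnfrsf1atm1Mak and Tnfr2-/- mice the allele Tnfrsf1btm1Mwm, both on a B6.129 background that the labels name as C57BL/6J. The other 6 arrays came from Tnfr1,2-/- glomeruli, which carried both alleles, and from wildtype glomeruli, and served here to place a change on the side of one mutant and to estimate the spread between arrays, which the test takes from all 12 arrays. The wildtype mice were bred from crosses of the single mutants. All mice were male and 6 to 8 weeks old. Every culture held 5000 glomeruli that were trapped with magnetic beads, deprived of serum and exposed for 12 hours to murine TNF at 50 ng/ml, so that every group had received TNF and no array in this comparison measured glomeruli without it. Each array carried RNA of 1 of 3 independent preparations per genotype. The sources do not say whether these came from separate mice, and the p-values therefore measure only the spread between these preparations.

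Glomeruli are the filtering tufts of the kidney and consist of endothelial cells, mesangial cells and podocytes inside a capsule of parietal cells. TNF is a cytokine that binds both receptors. TNF receptor 1, encoded by Tnfrsf1a, carries a death domain, through which it activates NF-κB and MAP kinases and can start apoptosis or necroptosis. TNF receptor 2, encoded by Tnfrsf1b, lacks a death domain, recruits TRAF proteins and responds best to TNF held in the membrane. The receptors act on intrinsic glomerular cells, where TNF is known to induce chemokines, adhesion molecules and complement, and the comparison asks which transcripts depend on which receptor once soluble TNF is present.

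Glomeruli that kept receptor 1 but lacked receptor 2 had far higher transcript levels of several chemokines, of the adhesion molecules Vcam1 and Icam1, and of some guanylate-binding proteins, complement factor B and immunoproteasome subunits than glomeruli that kept receptor 2 but lacked receptor 1. In the opposite direction, transcripts of the vasodilator peptide Vip, the lymphatic growth factor Vegfd, the Notch target Heyl and the cardiac and smooth muscle regulator Hopx were lower where receptor 1 was intact. Calling required a change of at least 1.5-fold with an adjusted p (limma, Benjamini-Hochberg) under 0.05. By this rule 219 of the 18194 genes were called, 1.2% of those tested. Of these, 154 were higher (0.846%) and 65 lower (0.357%) in Tnfr2-/- glomeruli. For all 219 the Tnfr1-/- and Tnfr2-/- arrays did not overlap, which held for 1877 genes (10.3%) in all. The called genes with higher levels differed by a median of 2.87-fold, with 127 at or above 2-fold, 47 at or above 4-fold and 23 at or above 8-fold. The called genes with lower levels differed by a median of 2.48-fold, with 54 at or above 2-fold, 12 at or above 4-fold and 1 at or above 8-fold. Arrays of whole glomeruli cannot tell fewer cells of a type from less RNA per cell. Among all genes the median log2 difference was -0.006, with an interquartile range of -0.12 to 0.12.

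**Figure D1:**
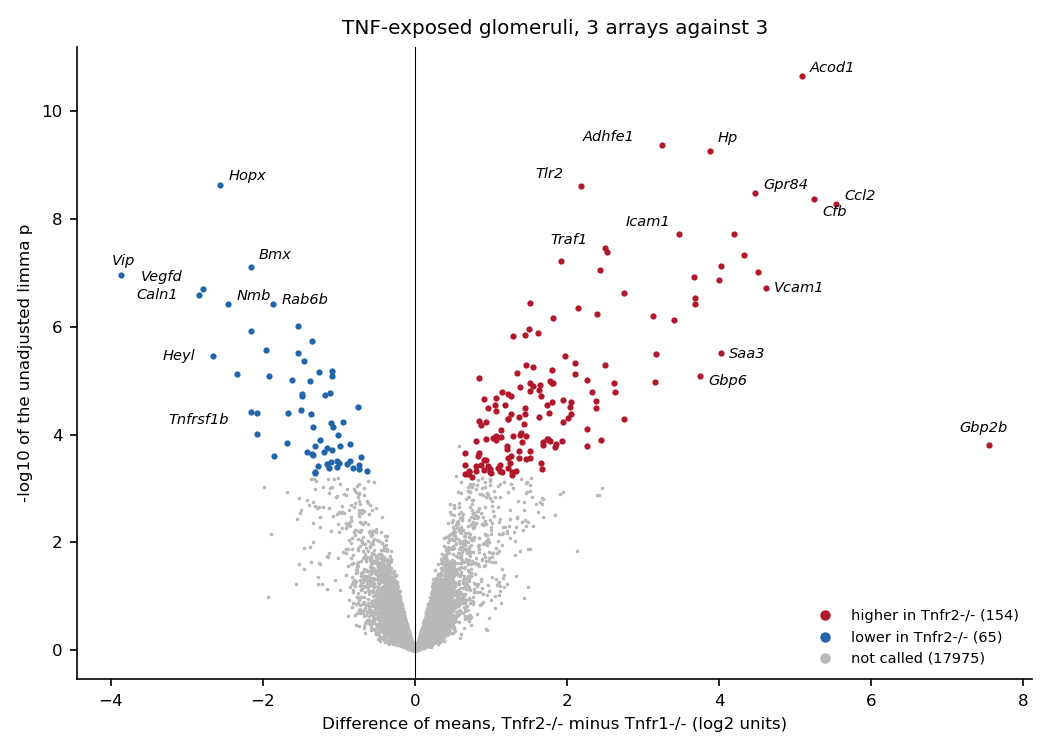
Difference between the mean log2 values of Tnfr2-/- and Tnfr1-/- glomeruli (x axis, log2 units) against the negative log10 of the unadjusted limma p (y axis), 1 point per gene for 18194 genes. Red points are the 154 genes called higher and blue points the 65 called lower in Tnfr2-/- glomeruli, and the red arm reaches further out, to 7.54 for Gbp2b against -3.87 for Vip.

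With the replicate number as a block, 305 genes were higher and 145 lower, and these included all 219 genes called without it. The sample titles do not say what this number stands for, and the block was chosen from correlations between these same arrays. Calls that pass only with the block, here and below, carry this limit. Leaving out Tnfr2-/- replicate 1 gave 99 genes with higher levels, leaving out replicate 2 gave 96 higher and 31 lower, and leaving out replicate 3 gave 41 lower. Replicate 3 of both genotypes had a beta-actin 3′ minus 5′ difference of 1.95 and 2.09 log2 units against 0.82 to 1.01 on the other 4 arrays. This sign of RNA and labelling quality was balanced between the single mutants. In a principal component analysis of the 6 arrays, the first component (42.6% of the variance) separated replicate 3 of both genotypes from the rest, and the second (29%) separated the genotypes. The number of arrays limited the precision: with 3 against 3, the smallest p of an exact permutation test of a single gene is 0.1.

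The targeted receptors were examined first. Tnfrsf1b, encoding TNF receptor 2, had log2 values of 7.32, 8.36 and 6.76 on the Tnfr1-/- arrays and of 5.66, 4.95 and 5.38 on the Tnfr2-/- arrays. The groups did not overlap, and Tnfrsf1b was 4.44-fold lower in Tnfr2-/- glomeruli (log2 difference -2.15, standard error 0.329, adjusted p = 0.0067). A further probe set for Tnfrsf1b differed by only -0.46, and the call was lost when only the 6 arrays compared entered the fit (adjusted p = 0.077). Tnfrsf1a, encoding TNF receptor 1, had log2 values of 9.80, 10.18 and 9.24 on the Tnfr1-/- arrays and of 10.77, 10.82 and 10.60 on the Tnfr2-/- arrays. These groups did not overlap either, but the 1.99-fold difference did not pass the test (log2 difference 0.99, standard error 0.237, adjusted p = 0.088). It passed with the replicate number as a block (adjusted p = 0.010), and without Tnfr1-/- replicate 2. The position of the probe sets relative to the disrupted parts of the genes is not given in the sources used here, so the signal that remained in each mutant does not show whether functional transcript was left.

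Chemokines, the secreted attractants of leukocytes, made up 11 of the 154 genes with higher levels, and the lists below can be read against the 1.2% called and the median of -0.006 over all genes. Of the 7 CXC chemokines that attract neutrophils, 4 rose and none fell (median log2 difference of the list 1.74). Of the 3 ligands of CXCR3, the receptor of activated T cells, 2 rose (median 3.67), and of the 17 CC chemokines 4 rose (median 0.28). The remaining list, of 6 homeostatic and membrane-bound chemokines, held 1 called gene, Cxcl16 (median -0.005).

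Ccl2, the main attractant of monocytes, had log2 values of 6.78, 7.84 and 6.30 on the Tnfr1-/- arrays and of 12.72, 12.77 and 12.04 on the Tnfr2-/- arrays. No Tnfr2-/- array came near the Tnfr1-/- range, and Ccl2 was 46.5-fold higher (log2 difference 5.54, standard error 0.353, adjusted p = 1.2e-05). Ccl7, which shares receptors with Ccl2, was 12.8-fold higher, and Ccl5, an attractant of T cells and monocytes, 5.23-fold higher. Cxcl2 read 6.68, 8.00 and 7.05 in Tnfr1-/- and 11.72, 11.53 and 11.46 in Tnfr2-/- glomeruli, a 20.1-fold difference (log2 difference 4.33, standard error 0.338, adjusted p = 6.5e-05). Cxcl3 and Cxcl5, of the same list, were 16.2-fold and 10.6-fold higher. Cxcl1 was the exception in size, since it was already high in Tnfr1-/- glomeruli, at 10.14, 11.45 and 10.18 against 12.55, 12.34 and 12.10, a 3.34-fold difference (adjusted p = 0.016). For Cxcl10 the values were 7.56, 9.16 and 7.72 against 12.11, 12.09 and 12.23, a 15.9-fold difference (log2 difference 3.99, standard error 0.346, adjusted p = 0.00012). Cxcl9, the other called ligand of CXCR3, was 12.7-fold higher. The called differences of Cxcl1, Cxcl16 (3.41-fold) and Ccl9 (3.84-fold) were each lost without Tnfr1-/- replicate 1 or 3 or without Tnfr2-/- replicate 1 or 2, with adjusted p-values of up to 0.082, 0.097 and 0.10.

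The promoters of 4 CXC chemokine genes, and of the adhesion, metabolic and GTPase genes described next, are shown because these genes moved together and because the letters of NF-κB and interferon-response elements can be read in them. All are from RefSeq (GRCm38.p6) and run 5′ to 3′ on the gene's strand from 250 bases before to 50 bases after the start. Capitals mark matches on either strand to GGG and TTTCC with any 2 bases between (the long form of the NF-κB letters), GGAANTTCC (the short form, which can match the same bases), TTTC and TTTC with any 2 bases between (interferon-stimulated response letters) or TTCNNNGAA (STAT letters). Vip, which moved the other way, is shown as a window without a match.
Cxcl1 (chr5:90890995-90891294, + strand): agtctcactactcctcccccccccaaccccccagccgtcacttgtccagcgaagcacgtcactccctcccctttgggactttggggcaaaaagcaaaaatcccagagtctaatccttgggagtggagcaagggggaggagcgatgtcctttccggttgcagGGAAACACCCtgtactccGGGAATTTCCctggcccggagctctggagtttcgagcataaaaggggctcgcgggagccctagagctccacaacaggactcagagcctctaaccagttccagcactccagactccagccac
Cxcl2 (chr5:90903649-90903948, + strand): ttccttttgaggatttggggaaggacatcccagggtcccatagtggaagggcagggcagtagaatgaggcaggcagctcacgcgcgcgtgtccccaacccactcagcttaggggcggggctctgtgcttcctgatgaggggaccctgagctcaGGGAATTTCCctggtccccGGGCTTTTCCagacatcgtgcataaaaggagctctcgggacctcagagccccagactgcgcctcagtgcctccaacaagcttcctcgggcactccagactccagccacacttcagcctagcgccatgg
Cxcl3 (chr5:90785851-90786150, + strand): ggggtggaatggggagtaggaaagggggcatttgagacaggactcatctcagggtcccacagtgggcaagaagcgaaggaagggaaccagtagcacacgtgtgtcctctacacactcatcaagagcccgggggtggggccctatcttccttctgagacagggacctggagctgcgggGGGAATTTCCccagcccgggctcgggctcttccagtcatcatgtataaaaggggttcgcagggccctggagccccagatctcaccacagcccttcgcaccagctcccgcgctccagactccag
Cxcl10 (chr5:92348840-92349139, - strand): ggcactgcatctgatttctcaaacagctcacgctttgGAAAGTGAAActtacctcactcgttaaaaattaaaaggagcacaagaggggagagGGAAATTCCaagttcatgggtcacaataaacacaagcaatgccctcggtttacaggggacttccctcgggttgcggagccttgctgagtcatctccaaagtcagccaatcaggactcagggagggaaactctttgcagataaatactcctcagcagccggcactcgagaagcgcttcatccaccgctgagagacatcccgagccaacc
Icam1 (chr9:21015690-21015989, + strand): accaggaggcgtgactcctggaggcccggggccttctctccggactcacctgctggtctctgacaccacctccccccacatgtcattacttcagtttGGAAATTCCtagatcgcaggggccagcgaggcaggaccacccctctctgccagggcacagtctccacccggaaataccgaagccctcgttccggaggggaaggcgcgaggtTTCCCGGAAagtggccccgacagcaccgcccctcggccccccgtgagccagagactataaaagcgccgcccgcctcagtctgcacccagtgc
Acod1 (chr14:103046762-103047061, + strand): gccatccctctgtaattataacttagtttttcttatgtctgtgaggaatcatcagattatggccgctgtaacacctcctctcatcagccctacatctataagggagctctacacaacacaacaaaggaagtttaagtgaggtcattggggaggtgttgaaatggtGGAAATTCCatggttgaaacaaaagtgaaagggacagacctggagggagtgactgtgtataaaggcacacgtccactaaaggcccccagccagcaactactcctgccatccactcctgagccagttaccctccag
Gbp2 (chr3:142620413-142620712, + strand): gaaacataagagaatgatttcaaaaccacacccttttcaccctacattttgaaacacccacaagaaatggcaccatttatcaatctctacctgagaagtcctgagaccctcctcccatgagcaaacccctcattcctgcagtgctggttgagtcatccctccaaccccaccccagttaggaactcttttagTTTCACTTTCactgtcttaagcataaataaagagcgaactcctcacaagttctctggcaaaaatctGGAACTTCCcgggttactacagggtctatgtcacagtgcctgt
Gbp2b (chr3:142594597-142594896, + strand): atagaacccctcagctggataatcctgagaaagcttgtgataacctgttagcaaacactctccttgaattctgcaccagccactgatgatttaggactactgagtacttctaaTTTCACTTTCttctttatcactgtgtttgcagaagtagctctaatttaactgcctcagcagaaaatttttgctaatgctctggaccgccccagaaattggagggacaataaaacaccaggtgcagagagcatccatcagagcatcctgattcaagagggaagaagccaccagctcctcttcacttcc
Gbp3 (chr3:142559794-142560093, + strand): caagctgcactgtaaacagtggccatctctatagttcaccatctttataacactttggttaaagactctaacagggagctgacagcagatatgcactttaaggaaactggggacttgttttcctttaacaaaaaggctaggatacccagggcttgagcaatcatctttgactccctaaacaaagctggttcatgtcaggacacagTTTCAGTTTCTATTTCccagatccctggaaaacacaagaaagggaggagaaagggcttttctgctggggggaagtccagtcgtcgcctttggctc
Vip (chr10:5638968-5639267, + strand): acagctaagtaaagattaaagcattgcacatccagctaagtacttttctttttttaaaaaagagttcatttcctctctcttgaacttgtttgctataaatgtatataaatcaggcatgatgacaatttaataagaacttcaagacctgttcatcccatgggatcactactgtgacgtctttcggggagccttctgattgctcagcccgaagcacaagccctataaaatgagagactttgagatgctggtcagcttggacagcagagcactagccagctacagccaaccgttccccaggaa

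In Cxcl1, Cxcl2 and Cxcl3, which lie near each other on chromosome 5, the same 10 letters GGGAATTTCC stood upstream of the start, at -71 to -62, -97 to -88 and -73 to -64, with the start counted as 0. Icam1, Acod1 and Cxcl10 held the shorter form GGAAATTCC at -153 to -145, -85 to -77 and -158 to -150. The interferon-stimulated response letters were matched in Gbp2, Gbp2b, the Gbp3 promoter shown and, on the other strand, Cxcl10. The other listed Gbp3 promoter, chr3:142560106-142560405, held no match. A promoter was listed for 165 of the 219 called genes, some with several. The long NF-κB form was matched in 13 of 141 promoters of genes with higher levels (9.22%, 95% Wilson interval 5.47 to 15.1), in 0 of 75 promoters of genes with lower levels (interval up to 4.87%) and in 287 of all 18110 promoters (1.58%). The shares for GGAANTTCC were 6.38%, 1.33% and 0.977%, those for the interferon-stimulated response letters 8.51%, 4.0% and 3.03%, and those for TTCNNNGAA 9.22%, 5.33% and 7.21%. These are matches of letters in short windows, and they do not show binding. The 141 promoters belong to 114 genes and the 75 to 51 genes. Promoters of 1 gene, or of related neighbours such as Cxcl1, Cxcl2 and Cxcl3, are not independent, so the intervals can be too narrow. The shares were not tested against that of all promoters.

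Among 16 leukocyte adhesion molecules, 2 rose and none fell (median log2 difference 0.24). Both are ligands for leukocyte integrins on activated endothelium and other glomerular cells. Vcam1 had log2 values of 6.95, 8.53 and 7.63 in Tnfr1-/- and of 12.43, 12.03 and 12.48 in Tnfr2-/- glomeruli, and was 24.4-fold higher (log2 difference 4.61, standard error 0.412, adjusted p = 0.00016). Icam1 read 7.93, 8.87 and 8.04 against 11.76, 11.67 and 11.84, an 11.1-fold difference (log2 difference 3.48, standard error 0.25, adjusted p = 3.5e-05). The gaps between the groups were wider than the spread within either group for both genes. The addressin Madcam1 differed by 2.46 log2 units without passing the test (adjusted p = 0.067), although it passed with the replicate block (adjusted p = 0.0026). P-selectin (Selp) and E-selectin (Sele) differed by 0.91 and 0.44 and were not called.

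Among 17 interleukins and colony-stimulating factors, 3 rose and none fell (median 0.66). Il23a, a subunit of interleukin-23, was 4.42-fold higher (adjusted p = 0.00027) and Il1b, encoding interleukin-1β, 2.34-fold (adjusted p = 0.0039). Lif, a cytokine of the interleukin-6 family, was 3.19-fold higher (adjusted p = 0.040), a call that was lost when any array other than wildtype replicate 3, Tnfr1,2-/- replicate 1 and Tnfr2-/- replicate 3 was left out (adjusted p of up to 0.14). Il6 itself (log2 difference 1.56, adjusted p = 0.20) and Csf1, the macrophage growth factor (1.27, adjusted p = 0.062), were not called, but passed with the replicate block (adjusted p = 0.035 and 0.012). Of 24 NF-κB subunits, IκB proteins and regulators of the pathway, 7 rose and none fell (median 0.55). Traf1, an adaptor of TNF receptors, was 5.65-fold higher, the inhibitor Nfkbie 4.16-fold, the kinase Ikbke 3.53-fold and the A20-binding protein Tnip1 2.93-fold. In the TNF superfamily, apart from the targeted receptors, 3 of 21 members rose and none fell (median 0.32). The death receptor Fas had log2 values of 6.08, 6.61 and 6.78 against 8.30, 8.36 and 8.94, a 4.11-fold difference (adjusted p = 0.0057), and Cd40, the receptor for T cell help, was 2.34-fold higher. The call of Tnfsf13b, the B cell survival factor BAFF (2.13-fold), was lost when any of the 6 arrays, wildtype replicate 2 or Tnfr1,2-/- replicate 2 was left out (adjusted p of up to 0.18).

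Guanylate-binding proteins and immunity-related GTPases defend cells against intracellular microbes. Of 10 that were listed and measured, 4 rose and none fell (median 1.05). Gbp3 was 22.8-fold, Gbp6 13.4-fold, Gbp2 12.9-fold and Ifi47 4.82-fold higher, the call of Ifi47 being lost without Tnfr1-/- replicate 3 or Tnfr2-/- replicate 1 or 2 (adjusted p of up to 0.059). Gbp2b, which the list did not hold, had log2 values of 4.38, 4.38 and 4.77 in Tnfr1-/- and of 12.06, 11.75 and 12.34 in Tnfr2-/- glomeruli, the largest difference among the 18194 genes. The 187-fold difference (log2 difference 7.54, standard error 1.36, adjusted p = 0.018) had a large standard error because the fit shares its spread with the wildtype arrays, which read 10.79, 4.39 and 11.45. Without wildtype replicate 2 its adjusted p was 2.4e-07, and without any 1 of the 6 arrays compared the call was lost (adjusted p of up to 0.082). The part of inherited strain background in the levels of Gbp2b, and in the low wildtype array, was not tested. The listed antiviral genes of the interferon response moved less, with 1 of 24 called (median 0.11). The called gene was Xaf1, a binding partner of the apoptosis inhibitor XIAP, at 2.73-fold. This list did not hold Ifitm1, an interferon-induced membrane protein, or Parp9 and Parp14, described below, all of which were called higher. Irf1 (log2 difference 1.53, adjusted p = 0.052) and Oasl2 (1.54, adjusted p = 0.087) passed only with the replicate block or other alternatives (adjusted p with the block 0.0082 and 0.015).

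Of 16 complement components and regulators, 4 rose and none fell (median 0.27). Cfb, the protease of the alternative pathway, had log2 values of 5.18, 5.76 and 5.47 in Tnfr1-/- and of 11.04, 11.26 and 9.85 in Tnfr2-/- glomeruli, a 38-fold difference (log2 difference 5.25, standard error 0.329, adjusted p = 1.1e-05). Even its lowest Tnfr2-/- array lay far above the Tnfr1-/- arrays. Genes of the classical pathway moved less, with Serping1, encoding the C1 inhibitor, at 3.49-fold, C1s1 at 2.09-fold and C1ra at 1.79-fold. The call of C1ra was lost without any 1 of the Tnfr1-/- arrays or without Tnfr2-/- replicate 2 or 3 (adjusted p of up to 0.12). Among 21 acute phase proteins and genes of metal handling 4 rose (median 0.21), namely Saa3, encoding a serum amyloid A protein, at 16.2-fold, Hp, encoding haptoglobin, at 14.7-fold, the lipopolysaccharide-binding protein Lbp at 3.1-fold and the metalloreductase Steap4 at 2.04-fold. Of 26 pattern recognition receptors and inflammasome genes 4 rose (median 0.40). Clec4e, encoding the receptor Mincle, was 8.72-fold higher, the scavenger receptor Marco 6.75-fold, Tlr2, a receptor of bacterial lipoproteins, 4.55-fold and Casp12 3.33-fold. For Clec4e, the Tnfr1-/- arrays read 5.06, 5.17 and 4.91, the Tnfr2-/- arrays 7.73, 8.97 and 7.80, and the wildtype arrays lay above both at 9.24, 10.13 and 9.59. The call of Steap4 was lost without Tnfr1-/- replicate 2 or without Tnfr2-/- replicate 2 or 3 (adjusted p of up to 0.076), and that of Marco without Tnfr2-/- replicate 2 (0.058).

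All 13 measured genes of MHC class I presentation and the immunoproteasome had positive differences, and 5 of them passed the test (median 0.92). Psmb10 and Psmb8, catalytic subunits that replace their constitutive counterparts in the immunoproteasome, were 6.2-fold and 5.2-fold higher. Psmb10 read 8.89, 9.65 and 8.19 in Tnfr1-/- and 11.73, 11.68 and 11.22 in Tnfr2-/- glomeruli, with no overlap. The chaperone Tapbpl was 2.6-fold and the peptide-trimming enzyme Erap1 2.1-fold higher. The call of Tapbpl was lost without Tnfr1-/- replicate 1 or 3 or Tnfr2-/- replicate 2 (adjusted p of up to 0.065) and that of Erap1 without Tnfr1-/- replicate 1 or Tnfr2-/- replicate 1 or 3 (up to 0.077). By contrast, none of the 25 subunits of the constitutive proteasome was called, although all 25 differences were positive (median 0.17, range 0.008 to 0.39).

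Among 21 enzymes of itaconate, nitric oxide, prostanoid and oxidant metabolism 6 rose and none fell (median 0.21). Acod1, which makes itaconate from a citric acid cycle intermediate, had log2 values of 4.28, 3.82 and 4.33 in Tnfr1-/- and of 9.44, 9.23 and 9.01 in Tnfr2-/- glomeruli. This 33.9-fold difference had the smallest adjusted p of all genes (log2 difference 5.08, standard error 0.197, adjusted p = 4.1e-07). Arg2, mitochondrial arginase, was 5.78-fold higher, Gch1, which supplies the cofactor of nitric oxide synthases, 3.44-fold and Sod2, mitochondrial superoxide dismutase, 2.93-fold. Of 22 matrix metalloproteinases and inhibitors 4 rose (median 0.20), Mmp9 by 4.31-fold, Mmp3 by 3.86-fold, Mmp13 by 3.16-fold and Adamts9 by 2.09-fold. The call of Mmp3 was lost without Tnfr2-/- replicate 2 (adjusted p = 0.054), and that of Adamts9 with the mean of its probe sets (log2 difference 0.67, adjusted p = 0.43). Single members stood out in other families. Slc2a6, a glucose transporter of lysosomes, was 18.4-fold higher while the other 9 glucose transporters were not called, and Gpr84, a receptor for medium-chain fatty acids, was 22.2-fold higher. The proapoptotic Bid was the 1 called gene among 18 mediators of apoptosis and necroptosis (2.72-fold, adjusted p = 0.00065, list median 0.06). This list did not hold Fas, Casp12 and Xaf1, described above, or Birc2 and Birc3, which the study groups with apoptosis mediators. All of these were called higher.

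**Figure D2:**
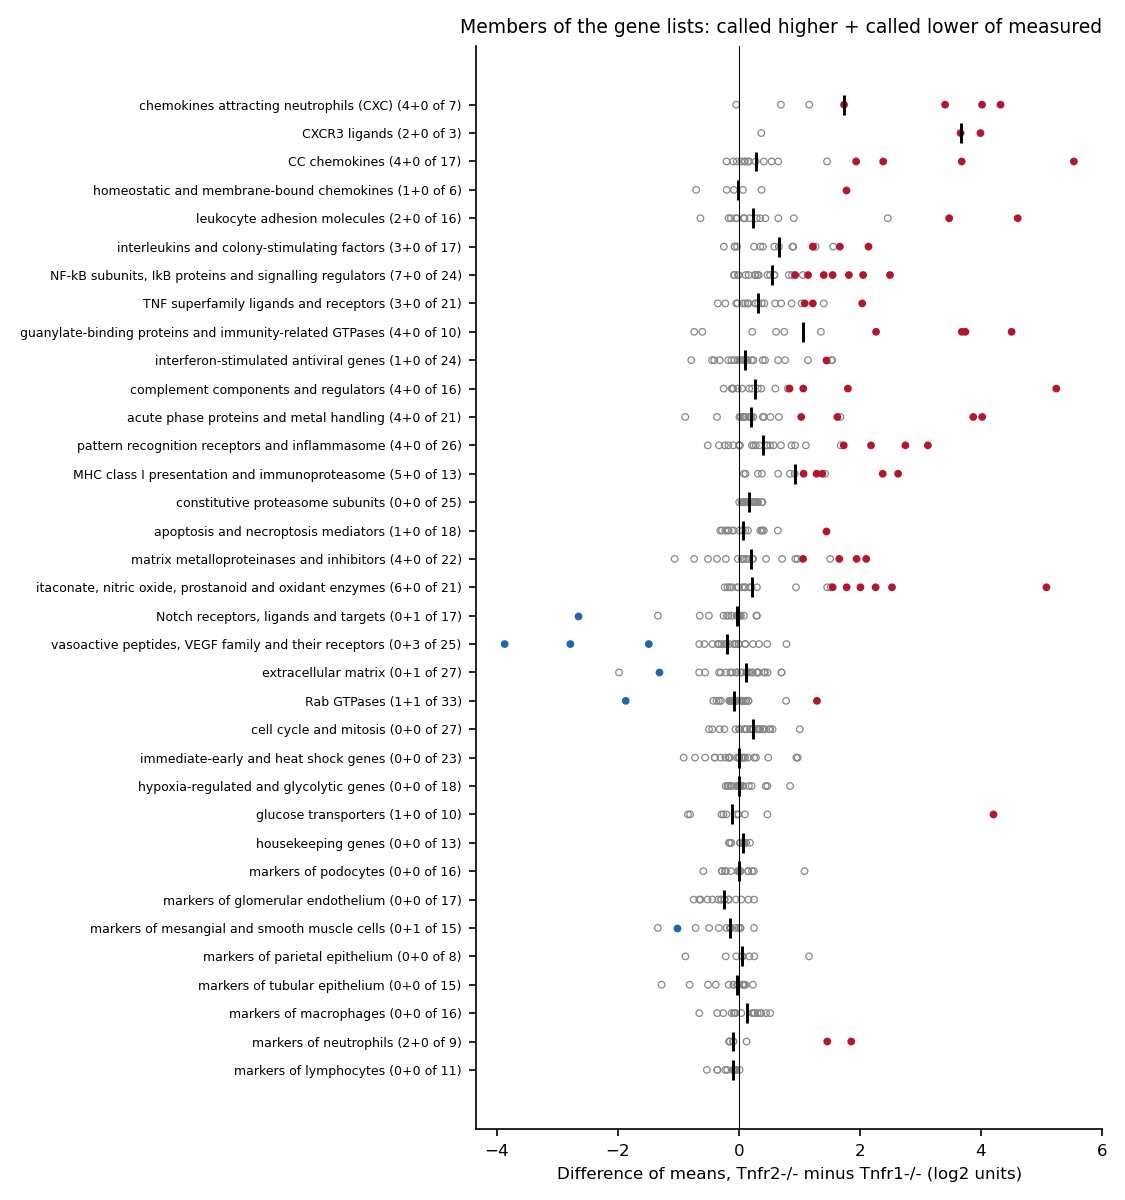
Log2 difference between Tnfr2-/- and Tnfr1-/- glomeruli (x axis, log2 units) for each measured member of 27 lists of genes by function and 8 lists of cell type markers (y axis). Filled points passed the test, open points did not, vertical ticks are list medians, and labels give members called higher + lower of those measured. Filled red points lie in 19 of the lists by function, and filled blue points in 4.

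The 65 genes that were lower in Tnfr2-/- glomeruli had fewer members in the lists. Of 25 vasoactive peptides, members of the VEGF family and their receptors, 3 fell and none rose (median -0.20). Vip, encoding the vasodilator vasoactive intestinal peptide, had log2 values of 12.20, 11.89 and 12.43 in Tnfr1-/- and of 8.67, 8.36 and 7.89 in Tnfr2-/- glomeruli. It fell by 3.87 on the log2 scale, a 14.6-fold difference (standard error 0.329, adjusted p = 0.00011). Vegfd, a growth factor of lymphatic vessels, read 11.28, 12.22 and 11.27 against 9.11, 8.50 and 8.81, a 6.88-fold difference (adjusted p = 0.00016). Npr3, the clearance receptor of natriuretic peptides, was 2.8-fold lower (adjusted p = 0.0040), a call lost with the mean of its probe sets (adjusted p = 0.082).

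Of 17 Notch receptors, ligands and targets, 1 fell. Heyl, a transcriptional repressor induced by Notch, had log2 values of 10.19, 9.83 and 9.49 in Tnfr1-/- and of 7.64, 6.85 and 7.05 in Tnfr2-/- glomeruli, a 6.31-fold difference (log2 difference -2.66, standard error 0.316, adjusted p = 0.0013). Notch3, its receptor in vascular smooth muscle, differed by -1.34 (adjusted p = 0.10, with the replicate block 0.021), and Notch1 by -0.65 (adjusted p = 0.52). The list median was -0.037. Hopx, a homeodomain protein that does not bind DNA, read 12.14, 12.06 and 12.29 against 9.74, 9.50 and 9.57, and was 5.9-fold lower (adjusted p = 9.0e-06).

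The further genes with the largest decreases belonged to signalling in muscle and vessel cells or to other functions. The neuropeptide Nmb was 5.47-fold, the G protein regulator Rgs2 5.04-fold, the tyrosine kinase Bmx 4.46-fold and the potassium channel subunit Abcc9 4.23-fold lower. Gucy1a2, a subunit of the nitric oxide receptor guanylate cyclase, read 9.75, 10.44 and 9.79 in Tnfr1-/- and 8.18, 8.03 and 8.03 in Tnfr2-/- glomeruli, a 3.77-fold difference (adjusted p = 0.0024). Caln1, a calcium-binding protein, was 7.16-fold, the keratin Krt13 4.43-fold, the TGF-β family member Gdf10 4.21-fold and the glycogen-targeting subunit Ppp1r3c 3.88-fold lower. The Tnfr2-/- values of Caln1, Bmx and Krt13 lay below the array medians of 5.59 to 5.64, where array signals carry little information on the true level. Among 27 genes of the extracellular matrix, 1 fell, the elastic fibre protein Fbln5 (2.48-fold, adjusted p = 0.019), while Col8a1 differed by -1.98 and passed only under alternatives (adjusted p = 0.066, with the replicate block 0.0093). The call of Gdf10 was lost without Tnfr2-/- replicate 2 or 3 (adjusted p of up to 0.082) and that of Fbln5 without Tnfr1-/- replicate 1 or Tnfr2-/- replicate 2 or 3 (up to 0.11).

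**Figure D3:**
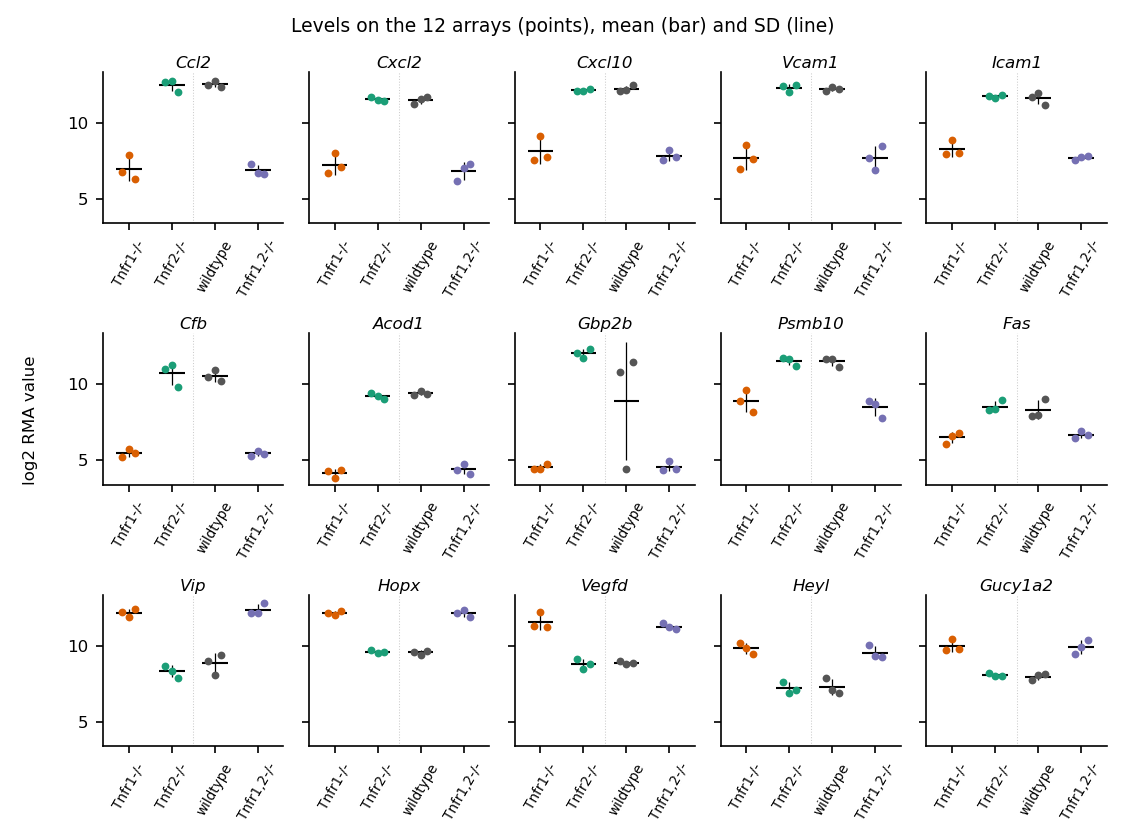
Log2 RMA values (y axis) of 15 genes on the 12 arrays, by genotype (x axis), with 1 point per array, the mean as a bar and the SD as a line. The first 10 genes are higher and the last 5 lower in Tnfr2-/- than in Tnfr1-/- glomeruli without overlap, wildtype points lie with Tnfr2-/- and Tnfr1,2-/- points with Tnfr1-/- points, and Gbp2b on wildtype replicate 2 (4.39) is the point that stands apart.

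Lists for general states of the tissue gave no calls. None of 27 cell cycle genes (median 0.24), 18 genes of hypoxia and glycolysis (0.011), 13 housekeeping genes (0.071) or 23 genes of the immediate-early and heat shock responses (0.00) was called. Markers of glomerular and other cell types gave 3 calls in all. Parietal cells form the capsule, which the isolated glomeruli lacked according to the study's methods. None of 16 podocyte markers (median 0.004), 17 markers of glomerular endothelium (-0.24, 3 of 17 positive), 8 of parietal epithelium (0.059), 16 of macrophages (0.13), 15 of tubular epithelium (-0.022) or 11 of lymphocytes (-0.097) was called. Over the arrays, the mean log2 level of the podocyte markers ran from 9.19 to 10.7 in Tnfr1-/- and from 9.9 to 10.2 in Tnfr2-/- glomeruli, and that of the macrophage markers from 7.4 to 8.19 and from 7.6 to 8.27. Of 15 mesangial and smooth muscle markers, 3 had positive differences (median -0.14, lowest -1.34), and the integrin Itga8 was called lower (2.02-fold, adjusted p = 0.037). The part of a lower share of mesangial or endothelial cells in the lower levels of vessel genes was not tested. That call was lost when any array other than Tnfr1,2-/- replicates 1 and 3 and Tnfr2-/- replicate 1 was left out (adjusted p of up to 0.15). Of 9 neutrophil markers, S100a8 (2.76-fold) and Camp (3.63-fold), both antimicrobial proteins, were called higher, while only 3 of the 9 differences were positive (median -0.09). The level of the neutrophil markers ran from 4.43 to 4.59 in Tnfr1-/- and from 4.78 to 4.81 in Tnfr2-/- glomeruli as a mean log2 value, below the array medians, and S100a9, the partner of S100a8 and named after its values were seen, read 4.31 to 4.42 against 4.07 to 4.30. The call of S100a8 was lost without Tnfr1-/- replicate 1 or 3 or Tnfr2-/- replicate 1 or 2 (adjusted p of up to 0.091), and that of Camp without Tnfr1-/- replicate 2 or 3 or Tnfr2-/- replicate 1 or 2 (up to 0.088). The part of any such cells in the differences above was not tested.

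Wildtype and Tnfr1,2-/- arrays did not enter the difference between the single mutants, though they entered the estimate of the spread behind its calls, and they placed most of the called genes on the same side. The wildtype mean lay nearer to Tnfr2-/- than to Tnfr1-/- glomeruli for 150 of the 154 genes with higher and 59 of the 65 genes with lower levels, and the Tnfr1,2-/- mean lay nearer to Tnfr1-/- glomeruli for 150 and 57. On a scale from 0 at the Tnfr1-/- mean to 1 at the Tnfr2-/- mean, the median wildtype position was 0.919 for genes with higher and 1.02 for genes with lower levels, and the median Tnfr1,2-/- position was -0.02 and 0.11.

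Between Tnfr1,2-/- and wildtype glomeruli, whose difference of means shares no array with that of the single mutants although the calls share the estimate of the spread, 236 genes were called (1.3% of 18194), 160 lower (0.879%) and 76 higher (0.418%) in Tnfr1,2-/- glomeruli. Of the 154 genes higher in Tnfr2-/- glomeruli, 116 were called lower in Tnfr1,2-/- than in wildtype glomeruli, which is 75.3% of the 154 and 72.5% of the 160. Of the 65 genes lower in Tnfr2-/- glomeruli, 44 were called higher in Tnfr1,2-/- glomeruli, 67.7% of the 65 and 57.9% of the 76. The genes called in both, 160 here, numbered 87 when each comparison was fitted to its own 6 arrays and 318 with the replicate block. The beta-actin difference was not balanced between Tnfr1,2-/- and wildtype arrays. It was 1.82 and 2.30 on Tnfr1,2-/- replicates 2 and 3 and 1.83 on wildtype replicate 3. The remaining arrays of these genotypes read 0.67 to 0.87. With the array set by that signal as a block, 309 genes were called in both. Across all 18194 genes, which are not independent replicates, the difference of Tnfr1-/- from Tnfr2-/- glomeruli correlated with that of Tnfr1,2-/- from wildtype glomeruli at a Pearson r of 0.652 and a Spearman rho of 0.361. Between Tnfr2-/- and wildtype glomeruli limma called 0 genes (0%), with 128 at an unadjusted p under 0.05, and significance analysis of microarrays (SAM), a permutation method that the study's methods name, called 3. Between Tnfr1-/- and wildtype glomeruli, which shares the wildtype arrays with the former, limma called 219 genes (1.2%), 131 lower (0.72%) and 88 higher (0.484%) in Tnfr1-/- glomeruli. The 0 calls between Tnfr2-/- and wildtype glomeruli do not show equal levels. Even the targeted Tnfrsf1b, 4.92-fold lower in Tnfr2-/- than in wildtype glomeruli, did not pass (limma adjusted p = 0.12). Rab6b and Znf41-ps were 2.6-fold and 3.1-fold lower there (limma adjusted p = 0.082 for both).

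**Figure D4:**
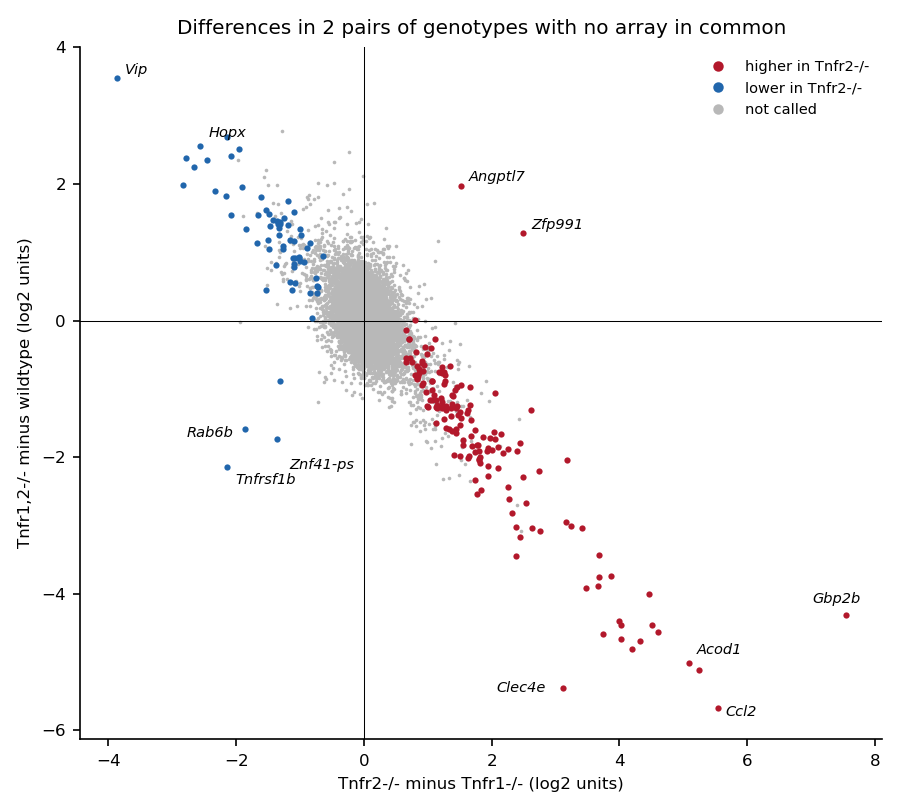
Log2 difference between Tnfr1,2-/- and wildtype glomeruli (y axis) against that between Tnfr2-/- and Tnfr1-/- glomeruli (x axis), both in log2 units, 1 point per gene. Red and blue points, called higher and lower in Tnfr2-/- glomeruli, fall along the descending diagonal, and Tnfrsf1b, Rab6b, Znf41-ps, Angptl7 and Zfp991 lie off it.

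Only 16 of the 219 called genes departed from this order. For 6 of them the wildtype mean lay with Tnfr1-/- and the Tnfr1,2-/- mean with Tnfr2-/- glomeruli, the order of the Tnfrsf1b genotype. These were Tnfrsf1b itself, Rab6b, Znf41-ps, Zfp979, Angptl7 and Zfp991. Rab6b, a small GTPase of Golgi transport, had log2 values of 9.82, 10.28 and 9.77 in Tnfr1-/- and of 8.14, 8.15 and 7.97 in Tnfr2-/- glomeruli, a 3.65-fold difference (log2 difference -1.87, standard error 0.178, adjusted p = 0.00023). Wildtype arrays read 9.78, 9.24 and 9.32 and Tnfr1,2-/- arrays 7.76, 7.84 and 7.99, so that Rab6b was also called lower in Tnfr1,2-/- than in wildtype glomeruli (log2 difference -1.58, adjusted p = 0.00088). All 3 further probe sets of Rab6b differed in the same direction between the single mutants, by -1.50, -1.05 and -1.40. Rab6b lies on chromosome 9, away from both receptor genes. The other member of 33 Rab GTPases that was called, Rab32, was 2.45-fold higher, and the list median was -0.077. Rab4a, a GTPase of endosome recycling named after its values were seen, was 2.91-fold lower in Tnfr2-/- glomeruli, at 8.36, 7.93 and 8.25 against 9.77, 9.76 and 9.63. Its wildtype and Tnfr1,2-/- means (9.10 and 9.55) both lay nearer to the Tnfr1-/- mean (9.72) than to the Tnfr2-/- mean (8.18). The wildtype arrays, at 8.91 to 9.32, lay between those of the single mutants, and the Tnfr1,2-/- arrays read 9.40 to 9.78.

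**Figure D5:**
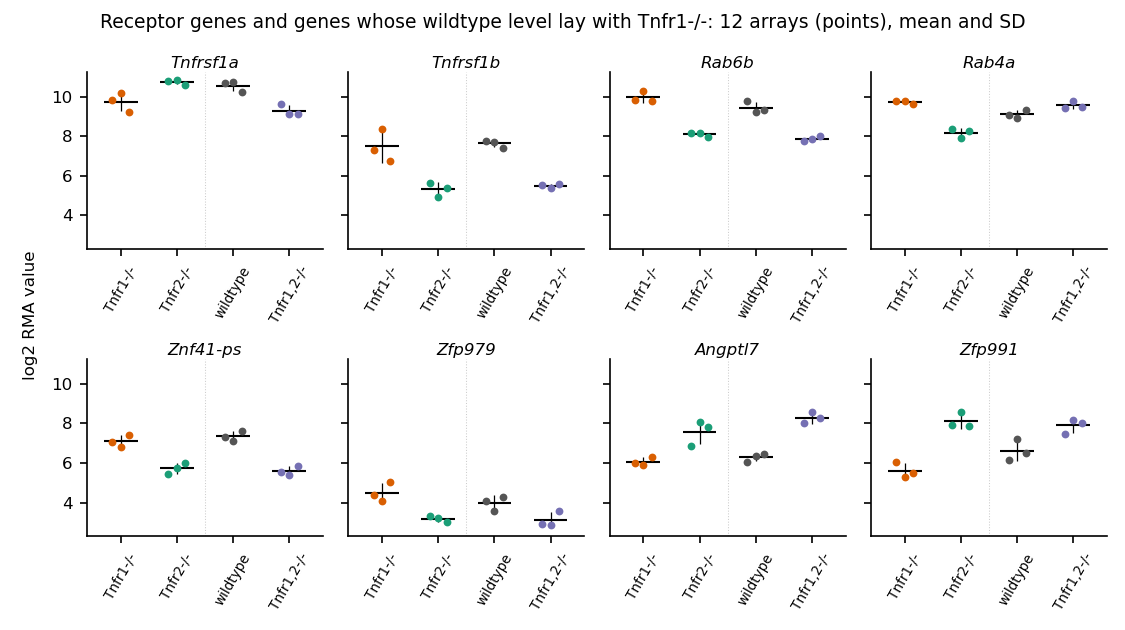
Log2 RMA values (y axis) on the 12 arrays, by genotype (x axis), of both receptor genes and of 6 genes whose wildtype mean lay nearer to Tnfr1-/- glomeruli, with 1 point per array, the mean as a bar and the SD as a line. Tnfrsf1b, Rab6b, Znf41-ps and Zfp979 are low and Angptl7 high in both genotypes without receptor 2, as is Zfp991 by the probe set drawn (a dimmer probe set of Zfp991 differs in the other direction). Rab4a is lowest in Tnfr2-/- glomeruli, with the wildtype points between those of the single mutants.

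The other 4 of these genes lie within 10 Mb of Tnfrsf1b on chromosome 4. Within that distance 6 of 238 genes were called (2.52%), and within 10 Mb of Tnfrsf1a on chromosome 6, 5 of 221 (2.26%), against 1.17% of the 17572 genes elsewhere. The shares near Tnfrsf1b and Tnfrsf1a were 3.81% and 3.5% within 5 Mb and 1.39% and 2.1% within 20 Mb. Near Tnfrsf1b, Znf41-ps had log2 values of 7.07, 6.80 and 7.42 in Tnfr1-/- and of 5.45, 5.77 and 5.99 in Tnfr2-/- glomeruli, a 2.57-fold difference (adjusted p = 0.0069). Angptl7, an angiopoietin-like protein, was 2.86-fold higher (adjusted p = 0.022), and the zinc finger gene Zfp979, below the array median on all 12 arrays, 2.48-fold lower (adjusted p = 0.044). Zfp991, of the same zinc finger family, was 5.64-fold higher by its brightest probe set but 1.54 log2 units lower by a dimmer one, and its mean over probe sets was not called, so its direction is uncertain. The remaining genes near Tnfrsf1b were the feedback inhibitor of EGF receptors Errfi1 (1.98-fold lower) and Wnt4 (1.55-fold lower), and both followed the common order. The genes near Tnfrsf1a were C1s1, C1ra, Bid, Tapbpl and Clec4e, all higher in Tnfr2-/- glomeruli. The mutants are B6.129, and for Znf41-ps, Zfp979, Angptl7 and Zfp991 and for the 5 genes near Tnfrsf1a a loss of the receptor and inherited DNA around the targeted gene cannot be told apart. The part of inherited DNA elsewhere in the genome in the other calls was not tested. Errfi1 and Wnt4 did not follow the Tnfrsf1b genotype, since the means of Errfi1 were 11.04 in Tnfr2-/- and 10.83 in wildtype against 12.03 in Tnfr1-/- and 12.08 in Tnfr1,2-/- glomeruli, and those of Wnt4 7.44 and 7.43 against 8.08 and 8.38. The calls of Angptl7 and Errfi1 were lost without Tnfr1-/- replicate 2 or Tnfr2-/- replicate 2 or 3, and also without Tnfr1-/- replicate 1 for Angptl7 and 3 for Errfi1 (adjusted p of up to 0.11 for both). Zfp979 lost its call when any array other than wildtype replicate 2, Tnfr1,2-/- replicates 1 and 3 and Tnfr1-/- replicate 2 was left out (up to 0.17), and Wnt4 when any array other than Tnfr1,2-/- replicate 1 and Tnfr1-/- replicate 2 was (up to 0.19).

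Among the 154 genes with higher levels, Tnfr1-/- replicate 2 was the highest of the Tnfr1-/- arrays for 79, and Tnfr2-/- replicate 3 was the lowest of the Tnfr2-/- arrays for 69. Over all 154 genes, these arrays differed from the mean of the other 2 of their genotype by a median of 0.165 and -0.132 log2 units. The median SD of the 219 called genes was 0.275 in Tnfr1-/- and 0.22 in Tnfr2-/- glomeruli, against 0.232 and 0.186 over all genes. The other probe sets of the called genes pointed the same way in 200 of 215 cases, and in all 99 cases with a mean log2 value of at least 6. Of the 154 genes with higher levels, 51 had a Tnfr1-/- mean under the log2 value of 6 that served to mark dim probe sets, where low signals are compressed and a fold can be understated. When the fit was limited to the 6 arrays compared, the calls of C1s1 (adjusted p = 0.052), Psmb8 (0.061), Lbp (0.064) and Adamts9 (0.056), all stable when 1 array was left out, were among those lost.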

How the data were processed

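RNA of 12 cultures of glomeruli was hybridized to Affymetrix mouse genome arrays, with 3 arrays per genotype. According to the labels and the study's methods, the authors scanned with GCOS 1.0 and summarised with RMA Express 1.0 beta 2 (background correction, quantile normalization and median polish of all 12 arrays together). The deposited values are log2 expression values from this step. RMA compresses low signals, and quantile normalization makes the medians of the arrays nearly equal (5.59 to 5.64). No per-sample column was left unused.

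Probe sets were named through the platform annotation. Of the probe sets, 34958 had 1 symbol, 932 several and 9211 none, and only the first were used. Where a gene had several probe sets, that of the highest mean was kept, which left 18194 genes. Of these, 18033 matched RefSeq genes by gene identifier. A linear model with the 4 genotypes was fitted with limma 3.58.1 in R 4.3.3 to all genes and arrays, which shares the spread, and Tnfr2-/- minus Tnfr1-/- was tested (moderated test, Benjamini-Hochberg over 18194 genes). This replaced the SAM procedure of the study's methods, which was rewritten as an alternative. Other alternatives concerned the arrays, blocks, probe sets, normalization, filters and thresholds. On simulated data with 18194 genes, 50 genes each were changed by 0.75, 1, 1.5 and 2 log2 units. Of these, 36%, 54%, 72% and 90% were called, with 10 false calls. Named genes were the receptors, the 15 called genes with the largest change per direction whose arrays did not overlap, up to 4 per list by smallest adjusted p, all called genes within 10 Mb of a targeted gene, up to 4 called between Tnfr2-/- and wildtype glomeruli, up to 5 called genes whose wildtype mean lay outside both single mutants, and genes that the study names in its array results. Not all of these are printed. The members and lists were chosen with earlier results of these data known.

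Arrays with the same replicate number were taken as pairs because the deviations of Tnfr1-/- and Tnfr2-/- arrays from their genotype means correlated at 0.359, 0.184 and 0.718 for replicates 1, 2 and 3. The numbers come from the sample titles, which do not say what a number stands for, and Tnfr1-/- replicate 2 correlated more with Tnfr2-/- replicate 1 (0.426). The block covered all 12 arrays, and a shared number did not always mark a shared array set by beta-actin signal. Tnfr1,2-/- replicate 2 had a beta-actin difference of 1.82, against 0.67 to 0.92 on replicate 2 of the other genotypes. Promoters were those of RefSeq on GRCm38.p6, found for 14453 genes. Withheld or unnamed probe sets were not analysed here. Standard errors and adjusted p-values are those of limma.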

Additional observations from a re-analysis of the deposited data

How the results depend on the processing

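The counts of genes with higher (154) and lower (65) levels in Tnfr2-/- glomeruli, and of those also called between Tnfr1,2-/- and wildtype glomeruli (160), stayed within 1.5 times under another choice of probe set, SAM, a mean-variance trend, other fold thresholds, median centring, cyclic loess and the removal of dim or cross-hybridizing probe sets. A fit to only the 6 arrays compared gave 39 genes with lower levels, and 87 were also called between the other genotypes. Array weights gave 102 genes with lower levels and 258 in both comparisons. The replicate block, which uses the pairing of arrays by number, gave 305 genes with higher and 145 with lower levels and 318 in both, and the array set by beta-actin signal as a block gave 303, 159 and 309. Leaving out 1 array at a time gave 96 to 174 genes with higher levels, 31 to 82 with lower levels and 107 to 160 in both. Of 94 named genes that were called, all kept their direction without any 1 array, 25 lost the call without at least 1 array (highest adjusted p 0.0535 to 0.192), and 23 lost it with only the 6 arrays. The block changed no call of a named gene other than those given beside it. The cause of these changes was not tested. Signals under a log2 value of 6 limit the folds of 51 genes with higher and 15 with lower levels.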

Other observations

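The genes in these paragraphs were named after their values were seen. Adhfe1, an enzyme of hydroxy acid oxidation, had log2 values of 5.06, 5.02 and 5.12 in Tnfr1-/- and of 8.32, 8.27 and 8.35 in Tnfr2-/- glomeruli, a 9.49-fold difference with little spread in either group (adjusted p = 3.3e-06). Prg2, the major basic protein of eosinophil granules, read 3.88, 3.77 and 3.90 against 7.20, 6.29 and 5.90 (6.12-fold, adjusted p = 0.0028). Its wildtype arrays read 6.06, 4.77 and 5.32, all above the Tnfr1-/- arrays, and the highest of them lay above the lowest Tnfr2-/- array. Parp9 and Parp14, mono-ADP-ribosyltransferase family members that interferon is known to induce, were 2.4-fold and 3.13-fold higher in Tnfr2-/- glomeruli (adjusted p = 0.0041 and 0.0030). Amino acid transporters were also among the called genes, with Slc7a11, the cystine and glutamate exchanger, 2.87-fold and Slc7a2, an arginine transporter, 3.1-fold higher (adjusted p = 0.00023 and 0.0036).

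Besides Gucy1a2, both subunits of the common form of the nitric oxide receptor were called lower in Tnfr2-/- glomeruli, Gucy1a1 by 2.52-fold (adjusted p = 0.011) and Gucy1b1 by 1.66-fold (adjusted p = 0.035). The call of Gucy1a1 was lost without Tnfr2-/- replicate 2 (adjusted p = 0.071), and that of Gucy1b1 when any array other than wildtype replicate 2 and Tnfr1,2-/- replicates 1 and 3 was left out (adjusted p of up to 0.18). Both calls were lost with only the 6 arrays compared. That of Gucy1b1 was also lost with SAM, array weights, a mean-variance trend and the mean of its probe sets. Nnt, the mitochondrial transhydrogenase, read 9.75, 9.67 and 9.92 in Tnfr1-/- and 8.54, 8.24 and 8.44 in Tnfr2-/- glomeruli (2.59-fold lower, adjusted p = 0.0028), with wildtype arrays at 8.47, 8.27 and 8.47 and Tnfr1,2-/- arrays at 9.08, 8.92 and 9.65. Its call was lost with the mean of its probe sets (adjusted p = 0.066). The part of inherited strain background in the difference of Nnt was not tested. The 6 called genes for which only the Tnfr1,2-/- mean departed from the common order, by lying nearer to Tnfr2-/- glomeruli, were S1pr3, Prkca, Txnip, Trpc1, Mir155hg and Fut4, with log2 differences between the single mutants of -1.13, -1.09, -0.85, -0.71, 0.71 and 0.80.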
